A study of Mus musculus with 20 samples.

Results

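The genes described here serve acetylcholine signalling. They are Chat, Slc18a3, Slc5a7 and Ache, which make, load, recycle and break down the transmitter, and Chrna3, Chrna4, Chrna5, Chrna7, Chrnb2 and Chrnb4, which encode 6 subunits of neuronal nicotinic receptors. They were chosen by gene symbol, and all 10 were found among the 37561 genes present in every table. Spherical neural masses (SNMs), neural aggregates made from ESD3 mouse embryonic stem cells of strain 129s2/SvPas, were led toward a dopaminergic neuron fate, with RNA taken daily on days 0 to 4 and then on days 6, 8, 10, 12 and 14. The control line carried a retrovirally delivered short hairpin RNA against luciferase and the HPRT knockdown line one against HPRT, the purine salvage enzyme whose loss causes Lesch-Nyhan disease. Both lines had been kept on mouse embryo fibroblast feeders, and per the study's methods both were selected with puromycin. Each line was measured with 1 library per day, 10 libraries per line and 20 in all, and the RNAs of a time point, from replicated cultures per the labels, were pooled before sequencing. Each line was 1 transduced population, so an effect of the hairpin and a difference between the 2 populations cannot be told apart.

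Choline acetyltransferase (Chat) joins choline and acetyl-CoA in cholinergic nerve endings, the vesicular transporter Slc18a3 packs the product into vesicles, and acetylcholinesterase (Ache) splits it in the synaptic cleft, after which the high-affinity transporter Slc5a7 takes the choline back up. Nicotinic receptors are pentameric ion channels opened by acetylcholine. In brain, α4 with β2 forms the most common type and α7 forms receptors of its own, while α3 with β4, often with α5, is the typical combination of autonomic ganglia and of the medial habenula. The SNM protocol is directed at dopaminergic neurons, which carry nicotinic receptors but do not make acetylcholine.

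Chrna5, Chrna3 and Chrnb4 are neighbours. In the annotation of build NCBIM37 they lay within 67665 bases at chr9:54828687-54896351, with Chrna5 on the plus strand and Chrna3 and Chrnb4 on the minus strand. A gap of 3563 bases separated the ends of Chrna5 and Chrna3, and one of 1596 bases lay between Chrna3 and Chrnb4. Since all 3 were lower in the HPRT knockdown, the 250 bases before each start site are shown, taken from RefSeq on build GRCm38.p6 and written 5′ to 3′ on the strand of the gene. Capitals mark each GC box, GGGCGG on either strand, the letters bound by Sp1-type factors. RefSeq lists 2 start sites for Chrna5.
Chrna5, first start, chr9:54980630-54980879, plus strand: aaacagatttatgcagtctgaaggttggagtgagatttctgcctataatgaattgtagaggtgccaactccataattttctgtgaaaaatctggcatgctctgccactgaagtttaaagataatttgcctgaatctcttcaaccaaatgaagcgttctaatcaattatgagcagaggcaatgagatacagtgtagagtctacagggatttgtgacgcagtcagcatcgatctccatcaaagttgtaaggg
Chrna5, second start, chr9:54981238-54981487, plus strand: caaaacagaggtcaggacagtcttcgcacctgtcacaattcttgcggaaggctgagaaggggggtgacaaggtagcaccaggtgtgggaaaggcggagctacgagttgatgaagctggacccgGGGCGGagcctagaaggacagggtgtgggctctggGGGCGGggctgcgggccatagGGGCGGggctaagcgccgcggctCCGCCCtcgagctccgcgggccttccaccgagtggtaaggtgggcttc
Chrna3, chr9:55026563-55026812, minus strand: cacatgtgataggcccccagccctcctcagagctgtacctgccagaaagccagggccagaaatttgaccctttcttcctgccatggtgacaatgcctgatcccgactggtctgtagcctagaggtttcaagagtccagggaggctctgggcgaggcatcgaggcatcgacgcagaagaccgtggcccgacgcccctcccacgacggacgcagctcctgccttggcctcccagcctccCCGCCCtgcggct
Chrnb4, chr9:55048545-55048794, minus strand: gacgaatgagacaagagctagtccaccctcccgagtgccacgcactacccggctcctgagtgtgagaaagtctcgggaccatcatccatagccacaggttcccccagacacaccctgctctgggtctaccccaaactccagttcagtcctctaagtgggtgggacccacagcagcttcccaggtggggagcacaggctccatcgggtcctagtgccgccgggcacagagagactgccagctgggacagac
The second Chrna5 start held 4 GC boxes, Chrna3 held 1, and the first Chrna5 start and Chrnb4 held 0. The letters CANNTG, the E-box read by basic helix-loop-helix factors, were present once or more in all 4 stretches, with 1 and 2 matches at the Chrna5 starts and 2 each for Chrna3 and Chrnb4. Over all 10 genes RefSeq listed 11 promoters, of which 6 held a GC box and 10 an E-box, and among all 32851 RefSeq promoters 32.7% held a GC box and 66.2% an E-box. The neighbours thus did not share the GC box, and a match is a description of letters and not of binding.

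The other members lay apart in build NCBIM37. Chrna4 was at chr2:180753085-180778251, Chrna7 at chr7:70243578-70357455, Chrnb2 at chr3:89557370-89568554, Slc5a7 at chr17:54412919-54438359 and Chat at chr14:33221389-33279095, all on the minus strand, with Ache at chr5:137728747-137735694 on the plus strand. Slc18a3 lies within Chat on the same strand, an arrangement known as the cholinergic gene locus. Chrnb2 ends 1 base from Adar, which is on the other strand, and Chat overlaps Gm2990 on the other strand, and since the library kit kept no strand, reads over such shared ends could not be told apart.

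In the deposited tables each value was the log2 of a normalized read count with the mean of the table's 2 libraries subtracted, so the tables gave ratios and not levels. The reads behind the members were recovered from the steps between low values, and are given below as reads or, divided by the size factor of the library, as normalized reads. The tables give no read totals, and the size factors, which stand for relative depth, ran from 0.802 to 1.56 over the 20 libraries. Hprt itself was at 6.24% of control, a mean log2 ratio (HPRT knockdown minus control) of -4.00 ± 0.89 (SD, n = 9 days), and lower on 9 of 9 days (limma adjusted p = 1.398e-05). Day 6 entered no test, since the study set it aside as discrepant in its pathway work, and its values are given separately.

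Read numbers differed widely among the members. Chat had few reads everywhere, with at most 7 in a control library and at most 17 in an HPRT knockdown library, and under 10 in 10 control and 8 knockdown libraries. In the HPRT knockdown, Chrna3 had under 10 reads in 7 of 10 libraries, Chrna5 and Chrnb4 in 4 each, and Slc18a3 and Slc5a7 in 1 each. In the control, Chat was the only member with a library under 10 reads. Chrna4 and Chrnb2 were the deepest, with medians of 409 and 366 reads in the control. The levels of Chrna7, Ache and Chrna4 rested on 2, 4 and 6 libraries with whole reads and are less certain than those of the other members, which does not touch their ratios.

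All 6 nicotinic subunits and the choline transporter Slc5a7 were down-regulated in the HPRT knockdown, while Slc18a3 and Ache did not pass the test. Of 9 members above the low-value filter, 7 were called lower and 0 higher at a limma adjusted p under 0.05. The background was large, because 52.5% of the 13608 genes tested were called, 26.2% higher and 26.3% lower. The median of the 9 mean log2 ratios was -1.32, against 0.01 over all genes tested. On all 9 days 6 members were lower, namely Slc5a7, Chrna3, Chrna4, Chrna5, Chrna7 and Chrnb4, and 15.2% of all genes were lower on all 9 days. On day 6 the 7 called members were lower as well, from -0.33 for Chrna7 to -3.36 for Chrna3. The days are successive collections of each line and not replicates of a day, so the p-values measure the spread between days. In bulk SNMs, fewer cells of a type and less RNA per cell cannot be told apart.

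**Figure D1:**
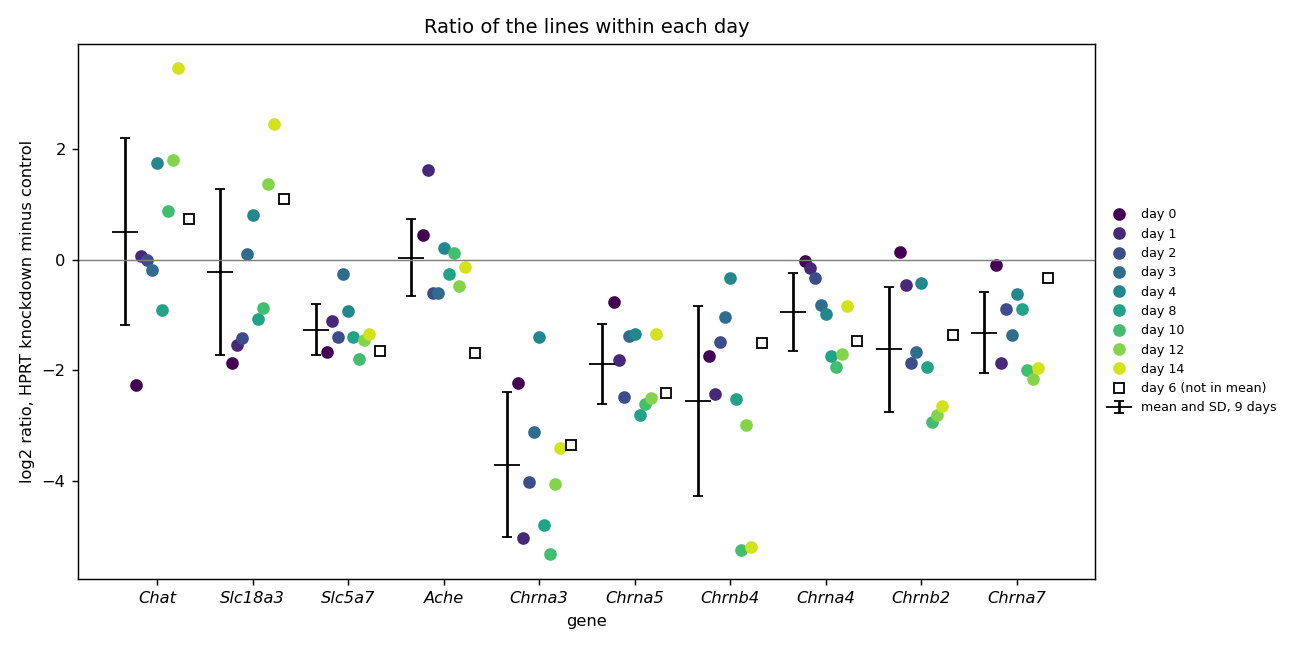
Log2 ratio of HPRT knockdown to control (vertical axis) for each of the 10 members (horizontal axis), 1 point per day, with the mean and SD over 9 days and day 6 as an open square. The points of Slc5a7, Chrna3, Chrna4, Chrna5, Chrna7 and Chrnb4 are all below 0 on the 9 days, while those of Chat, Slc18a3 and Ache lie on both sides.

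Chrna3, the α3 subunit of ganglionic receptors, was the furthest below control of all members. In the control it ranged from 32.3 normalized reads on day 1 to 293 on day 8, with a median of 101. In the HPRT knockdown the lowest level was 1.06 on day 1, the median 7.52 and the highest 46.5 on day 4. Day 4 was the single knockdown library that reached into the control range. The mean log2 ratio was -3.71 ± 1.31 (SD, n = 9 days; limma adjusted p = 0.0001073), a level of 7.63% of control. On the scale of log2(normalized reads + 4), which draws low values together, it was -3.03 (limma adjusted p = 0.000114). The ratio was lowest on day 10, at -5.34, where 6 reads stood against 299, and highest on day 4, at -1.39. On day 1 the knockdown library held 1 read (exact 95% Poisson interval 0.0253 to 5.57 reads, counting error only) against 36 in the control (25.2 to 49.8), so the loss on that day exceeded counting error while its size was poorly fixed. Day 6 gave -3.36.

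Chrnb4, the β4 partner of α3, came next. Its control level ranged from 32.3 normalized reads on day 3 to 143 on day 8 with a median of 48.9, and its knockdown level from 1.10 (day 14) to 49.0 (day 4), median 12.3. As with Chrna3, the knockdown line came within the control range on day 4. Over the days it averaged a log2 ratio of -2.56 ± 1.72 (SD, n = 9 days; limma adjusted p = 0.002472), or 17.0% of control. On the scale of log2(normalized reads + 4) the mean was -2.02 (limma adjusted p = 0.001483). The gap was wider late than early, with a mean of -1.32 over days 1 to 4 and of -4.00 over days 8 to 14. The time trend of the ratio was not called (limma adjusted p = 0.0501). The knockdown library of day 14 held 1 read and that of day 10 held 3, so the ratios of -5.20 and -5.26 on those days carry wide counting error.

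Chrna5, an accessory subunit that joins α3β4 and α4β2 receptors without forming the binding site itself, was at 26.9% of control, a mean log2 ratio of -1.89 ± 0.73 (SD, n = 9 days; limma adjusted p = 0.0001615). Control levels ran from 18.4 normalized reads on day 2 through a median of 35.7 to 125 on day 10. Knockdown levels ran from 3.23 on day 2 through a median of 15.2 to 19.4 on day 10. The ranges met at their ends, while within every day tested the knockdown was lower, from -0.77 on day 0 to -2.81 on day 8. On days 4 and 8 the control was at 43.5 and 120, and the knockdown at 17.4 and 17.5. On day 6, between them, the control was at 27.5 and the knockdown at 5.25, so both lines rose into day 8.

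Chrna4 and Chrnb2, the pair that forms the main heteromeric receptor of brain, stood at similar levels in both lines on day 0 and differed later. Chrna4 was at 402 normalized reads in the control and 430 in the knockdown on day 0, a log2 ratio of -0.02, since the scale that joins the 20 libraries differs from that of a single table by -0.08 to 0.12 on the log2 scale. Its control level then reached 776 on day 10 and was at 333 on day 14, with a lowest value of 272 and a median of 395, while the knockdown line was lowest at 129 on day 6 and had a median of 214. Its mean log2 ratio was -0.95 ± 0.71 (SD, n = 9 days; limma adjusted p = 0.005116), or 51.9% of control, the smallest difference among the subunits. The ratio was -1.94 on day 10 and -0.83 on day 14.

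Chrnb2 was the only member whose ratio had a called time trend, although Chrnb4 fell more steeply and the call depended on single days. On day 0 the log2 ratio of Chrnb2 was 0.14, the single day on which it was higher in the knockdown. From day 8 on it lay between -1.95 and -2.94. Control levels ranged from 207 normalized reads on day 1 to 670 on day 10 with a median of 297, and knockdown levels from 60.4 (day 14) to 347 (day 0), median 85.8. The groups overlapped through days 0 and 4 of the knockdown line, at 347 and 232. The mean log2 ratio was -1.62 ± 1.13 (SD, n = 9 days; limma adjusted p = 0.003161; exact sign-flip permutation test p = 0.0078125, two-sided), or 32.4% of control, and it was lower on 8 of 9 days.

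Chrna7, the homomeric α7 subunit, was at 40.1% of control, a mean log2 ratio of -1.32 ± 0.73 (SD, n = 9 days; limma adjusted p = 0.0009833). Control levels ranged from 51.5 normalized reads on day 14 to 112 on day 8 with a median of 88.3, the narrowest span of all members in that line, 2.18 times from lowest to highest. In the knockdown the lowest value was 12.5 on day 14, the median 41.1 and the highest 69.2 on day 4. The lines were level on day 0, at -0.09, and differed by -1.97 to -2.16 on days 10 to 14. Day 6 gave a smaller ratio than most days, -0.33.

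Slc5a7, the choline transporter of cholinergic endings, was the steadiest of the called members. Control levels ranged from 22.6 normalized reads on day 6 to 51.4 on day 10 with a median of 39.0, and knockdown levels from 7.35 (day 6) to 21.2 (day 4), median 14.9. The lowest control library was above the highest knockdown library, so the levels did not overlap, but only narrowly. The control library of day 6 held 23 reads (exact Poisson interval, as above, 14.6 to 34.5, counting error only). The knockdown library of day 4 held 17 reads (9.90 to 27.2). These intervals overlapped, so the separation lay within counting error. The share of all genes without overlap was not taken. The mean log2 ratio was -1.26 ± 0.46 (SD, n = 9 days; limma adjusted p = 0.0001432), or 41.6% of control, with the smallest SD of the 10 members. The ratio was nearest to 0 on day 3, at -0.27, and lowest on day 10, at -1.80. The gap was present on day 0 already, at -1.68, as it was for Chrna3 (-2.23), Slc18a3 (-1.88), Chrnb4 (-1.75) and Chrna5 (-0.77). On that day Chrna4, Chrna7 and Chrnb2 still stood between -0.09 and 0.14, and Ache was at 0.44.

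**Figure D2:**
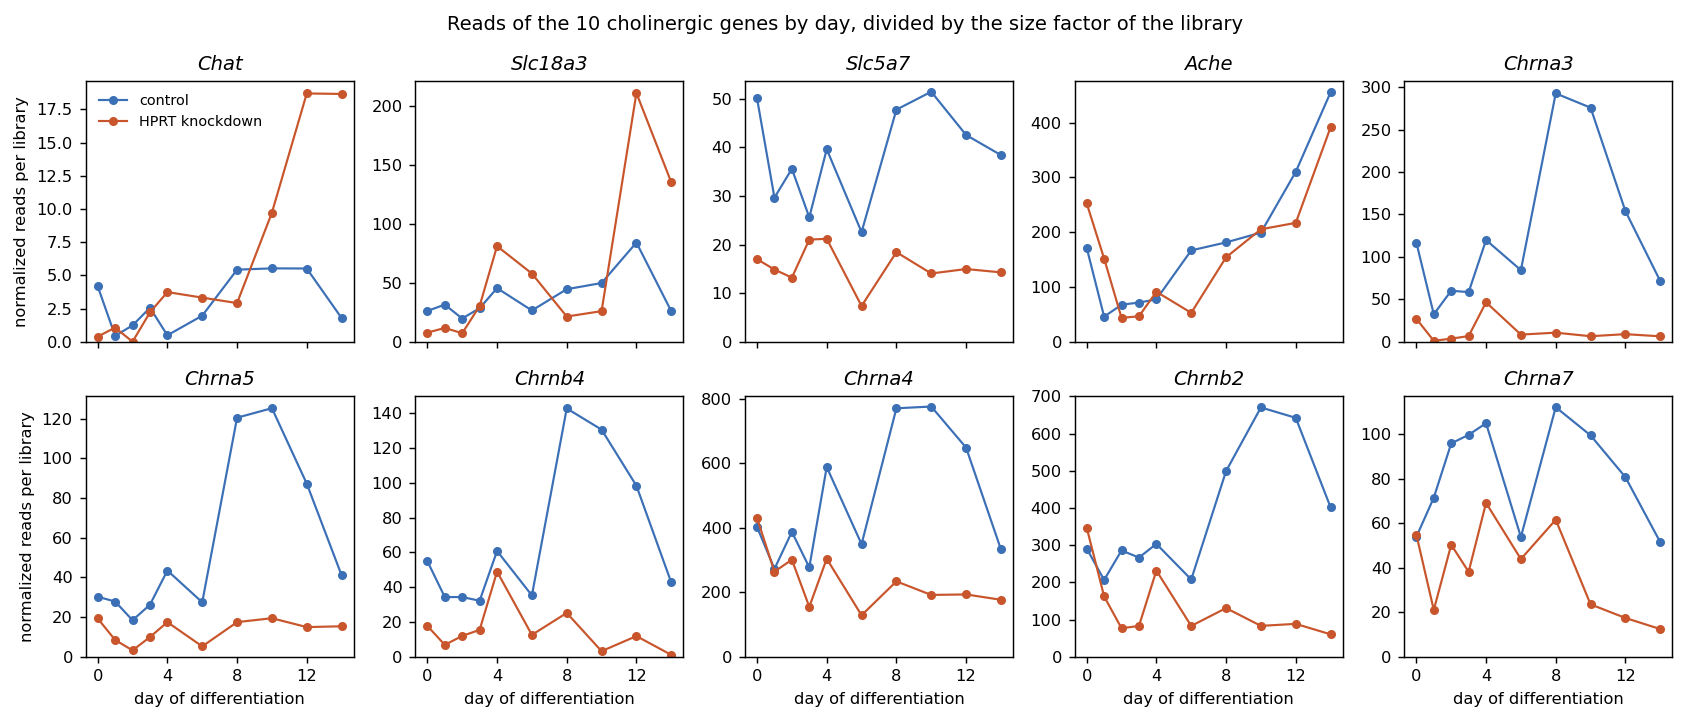
Normalized reads (vertical axis, recovered reads divided by the size factor of the library) by differentiation day (horizontal axis) for each member, 1 panel per gene and 1 line per cell line, with 1 library per point. Slc5a7 and Chrna3 stay low in the HPRT knockdown on nearly every day, and Chrna4, Chrnb2 and Chrna7 start together with the control on day 0 and part later.

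Slc18a3, the vesicular acetylcholine transporter, was lower early and higher late in the HPRT knockdown, and its mean ratio did not pass the test. On days 0, 1 and 2 its log2 ratio was -1.88, -1.54 and -1.42, and on days 12 and 14 it was 1.37 and 2.47. The sign turned back on the days between, with 0.81 on day 4, -1.08 on day 8 and -0.87 on day 10. In normalized reads the control ranged from 19.6 (day 2) to 84.0 (day 12), median 29.9, and the knockdown from 7.20 (day 2) to 211 (day 12), median 28.1. The highest and the lowest level of the gene were thus both in the knockdown line. The mean log2 ratio was -0.22 ± 1.50 (SD, n = 9 days; limma adjusted p = 0.6961), lower on 5 days and higher on 4.

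Chat, the enzyme that defines a cholinergic neuron, was too low for the filter and was read from its reads alone. The control libraries of days 12 and 14 held 7 reads (exact 95% Poisson interval 2.81 to 14.4, counting error only) and 2 reads (0.242 to 7.22). Those of the HPRT knockdown held 15 (8.40 to 24.7) and 17 (9.90 to 27.2). On day 14 the intervals did not overlap and on day 12 they did, and this compares single libraries. At days 0 to 4 no library of either line held more than 4 reads, and in 3 libraries the tables could not separate 0 from 1 read. For Chat the mean log2 ratio was 0.51 ± 1.69 (SD, n = 9 days), higher on 5 days, lower on 3 and equal on day 2, where both values were at the floor of the table (exact sign-flip permutation test p = 0.390625, two-sided). The largest daily ratio was on day 14, at 3.47 on the log2 scale, the same day as for Slc18a3, which lies within the same gene.

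**Figure D3:**
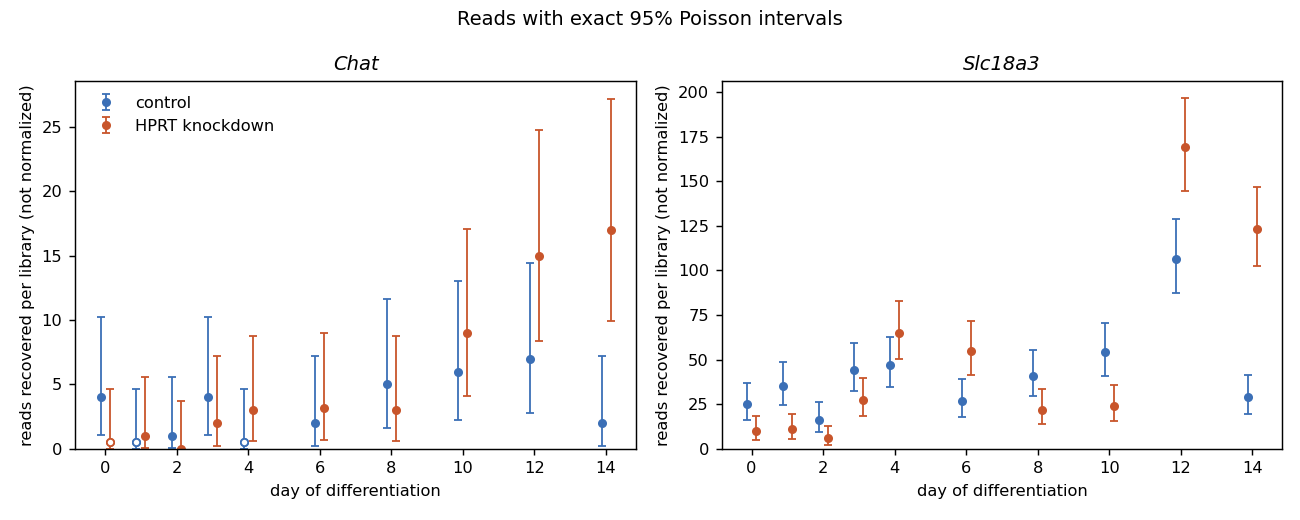
Recovered reads (vertical axis) of Chat and of Slc18a3, which lies within it, by differentiation day (horizontal axis) in each line, with exact 95% Poisson intervals for counting error and open symbols at 0.5 where 0 and 1 read could not be separated. For both genes the knockdown points of days 12 and 14 are above those of the control.

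Ache, which is also made by many cells that release no acetylcholine, showed no difference between the lines that passed the test. Control levels ranged from 45.8 normalized reads on day 1 to 455 on day 14 with a median of 169, and knockdown levels from 43.5 (day 2) to 391 (day 14), median 153. Its mean log2 ratio was 0.04 ± 0.70 (SD, n = 9 days; limma adjusted p = 0.8956; exact sign-flip permutation test p = 0.91015625, two-sided). The ratio ranged from -0.60 on day 3 to 1.62 on day 1, and with day 6, at -1.69, it had a mean of -0.14. With that SD, equality of the lines was not shown.

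Time trends were fitted as a slope on day within each line. In the control, Ache rose by 0.17 ± 0.041 per day on the log2 scale (SE; limma adjusted p = 0.008951) and Chrnb2 by 0.09 ± 0.024 (limma adjusted p = 0.01388), while the other 7 members tested were not called. Over all genes tested, 43.6% were called in the control, 19.7% rising and 23.9% falling. The course of the subunits in the control was not a straight line, because all 6 had their highest value on day 8 or day 10. From day 6, which is not in the slopes, to day 8 all 6 rose in both lines. In the knockdown these steps ran from 0.21 (Chrna3) to 1.60 (Chrna5) on the log2 scale. Without day 14, Chrna4, Chrna5, Chrnb4 and Slc18a3 were called rising in the control (limma adjusted p = 0.03978, 0.009046, 0.03396 and 0.01343) and Ache was not (0.05077). With the slope on log2(day + 1) Ache was not called either (limma adjusted p = 0.09965).

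In the HPRT knockdown line Slc18a3 rose by 0.26 ± 0.074 per day on the log2 scale (SE; limma adjusted p = 0.0487), and the other 8 members tested were not called, in a background of 13.1% of genes called, 7.60% rising and 5.53% falling. The Slc18a3 call was at the threshold and did not hold in 10 of 14 alternatives, with limma adjusted p of 0.0278 to 0.178 when single days were left out. Chat rose by 0.31 ± 0.035 per day in the fit without a filter (limma adjusted p = 0.0089), on the read numbers given above. Early values at or near the floor enter this fit, so its slope, SE and p are uncertain. None of the 6 subunits was called, and their slopes ran from -0.18 for Chrnb4 to 0.06 for Chrna5.

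The difference in slope between the lines was tested on the daily ratio. Chrnb2 fell relative to control by 0.19 ± 0.041 per day on the log2 scale (SE; limma adjusted p = 0.02251), in a background of 14.0% of genes called, 6.61% with a falling and 7.43% with a rising ratio. This call was lost without day 0 (limma adjusted p = 0.0592), day 1 (0.051) or day 12 (0.06864). Chrnb4, at -0.25 per day, Slc18a3, at 0.21, and Chrna4, at -0.10, missed the threshold (limma adjusted p = 0.0501, 0.06384 and 0.068). Chrna4 was called on log2(day + 1) and with the stricter filter (limma adjusted p = 0.03052 and 0.04685), and Chrnb4 from recovered reads (0.04894). Slc5a7 and Chrna3 had slopes of -0.03 and -0.07 (limma adjusted p = 0.5674 and 0.5672), and they were already low in the knockdown on day 0.

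Levels of different genes were compared per kilobase of exon, with those of Chrna7, Ache and Chrna4 less certain, as given above. In the control the order of the medians was Chrna4 (80.0 normalized reads per kb), Chrnb2 (55.2), Ache (36.6), Chrna3 (32.2), Chrna7 (19.4), Chrnb4 (14.0), Slc18a3 (12.4), Chrna5 (11.9), Slc5a7 (7.54) and Chat (0.804). Chrna4 was above Chrnb2 and Chrnb2 above Ache on 9 of 10 days each, and Chat was below Slc5a7 on all 10. Neighbours in the middle did not separate, as Ache was above Chrna3 on 3 of 10 days, and Chrna7 above Chrnb4 on 5. In the knockdown, Chrna3 stood next to last at 2.41, between Slc5a7 (2.88) and Chat (1.11). Chrna4 kept the top place at 43.2, above Ache (33.1) on 7 of 10 days.

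Over the 18 library values of the 9 days tested, pooled over both lines, the called members correlated with each other more than with the other 2. Pearson's r lay between 0.56 (Chrna5 with Chrna7) and 0.89 (Chrna7 with Chrnb4) for every pair among Slc5a7 and the 6 subunits, and between -0.38 and 0.38 for every pair that included Slc18a3 or Ache. The 18 values include both lines, so the gap between the lines enters r, and values of adjacent days share tables. The called members are those with such a gap, and r within a line was not taken, so a shared course within a line is not shown. The genes whose values were most like those of Chrna3 were Nhlh1 and Neurog1 (r = 0.99 and 0.98), both basic helix-loop-helix factors of young neurons, and Onecut1 (0.97). Chrnb2 was closest to Xkr7 (0.98), with Cnr1, the cannabinoid receptor, and Hecw1 next (0.96 each). For Slc5a7 they were Gm2137, Pou4f2 and Hsf2 (0.94, 0.94 and 0.93), and for Chrna4 Sox11, Mgat5b and Dach1 (0.92, 0.92 and 0.91). Chrna5 came closest to Scrt1, Trim36 and LOC100503448 (0.94, 0.93 and 0.92), Chrna7 to Tmem2, Phip and Mtf2 (0.95 each), and Chrnb4 to 5730419I09Rik, Epb4.1l4a and Pla2g4b (0.94 each). For Ache they included Gprasp2 and Pnck (0.94 and 0.93), and for Slc18a3 D16Ertd472e, Ankrd33b and Got1l1 (0.83, 0.78 and 0.77), so Slc18a3 had the loosest neighbours.

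The sum of the 6 subunits ranged from 139 normalized reads per kb on day 1 to 471 on day 10 in the control, and from 57.2 on day 14 to 184 on day 0 in the knockdown. The make-up of the sum differed too, with the levels of Chrna4 and Chrna7 less certain, as given above. Chrna3, Chrna5 and Chrnb4, the neighbours on chromosome 9, made up 27.3% ± 6.70 of it in the control and 13.3% ± 5.25 in the knockdown (SD, n = 9 days). The knockdown share lay below that of the control on 9 of 9 days, by 14.0 percentage points with an SD of 6.46, and is given as a description. Day 4 stood nearest, with 26.2% in the control and 22.5% in the knockdown, the day on which Chrna3 and Chrnb4 had their highest knockdown level.

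**Figure D4:**
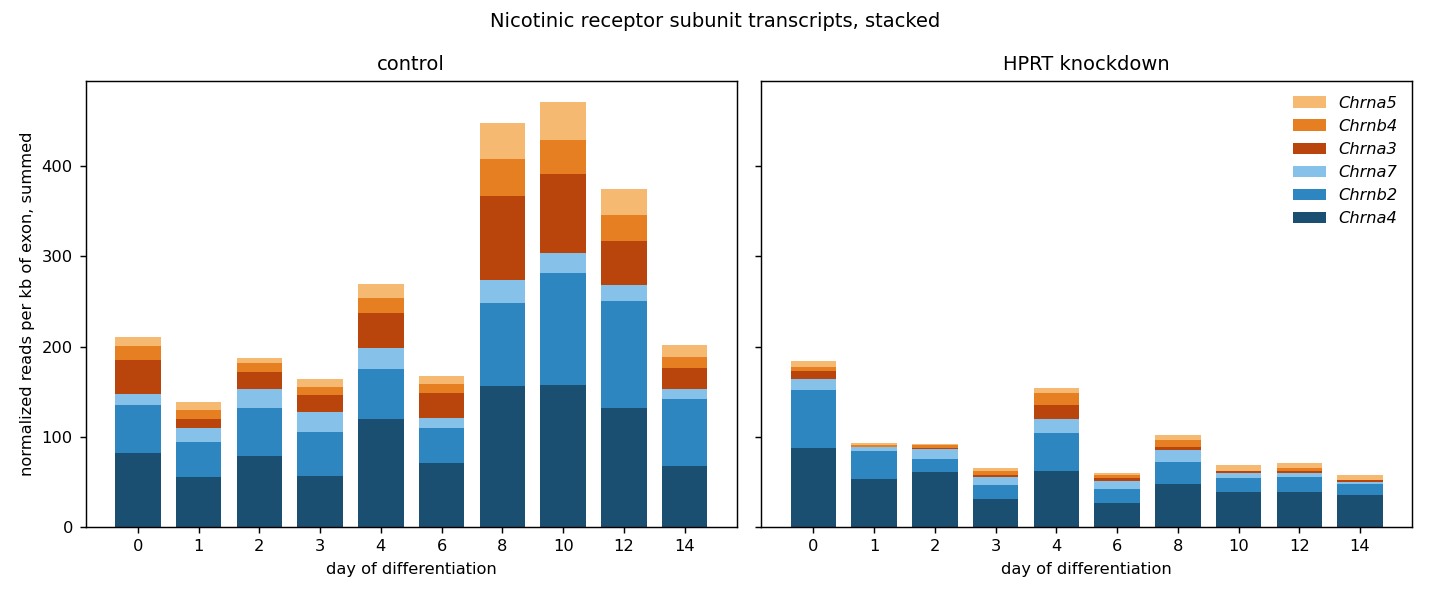
Normalized reads per kb of exon (vertical axis) of the 6 nicotinic subunits stacked by differentiation day (horizontal axis), 1 panel per line and 1 library per bar. The control bars reach 471 on day 10, and the knockdown bars stay at or below 184 with thin Chrna3 and Chrnb4 layers outside day 4.

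The other cholinergic genes, 45 in 5 lists, did not move one way. Of 25 tested, 10 were called higher and 7 lower, against 26.2% of all genes tested called higher and 26.3% lower, and the median log2 ratio was 0.04 against 0.01 over all genes. Of 10 other nicotinic subunits 4 were tested and 3 called lower, 0 higher. They were Chrna1 (-4.31 ± 3.73, limma adjusted p = 0.008963) and Chrnd (-4.61 ± 4.20, limma adjusted p = 0.01162), both subunits of the muscle receptor, and Chrna10 (-0.48 ± 0.16, limma adjusted p = 0.0004161), a subunit known from hair cells (SD, n = 9 days). Without day 0 the muscle subunits were at -5.07 and -5.53 and without day 14 at -3.70 and -3.97, for Chrna1 and Chrnd in turn, and Chrna1 was at -3.71 without day 3. The reads of Chrna1 ran from 6 to 3760 in the control and from 2 to 128 in the knockdown. Of 10 genes of receptor assembly and modulation 5 were tested, with 4 higher and 0 lower. They were Agrn (0.81), which gathers receptors at the muscle synapse, Lypd6 (0.72), a modulator of neuronal receptors, and the receptor chaperones Tmem35 (0.46) and Ric3 (0.36), given as mean log2 ratios. Of 5 muscarinic receptors 3 were tested and 1 called, the higher Chrm2 at 2.65 ± 1.63 (limma adjusted p = 0.001596). Of 8 genes of choline supply and acetylcholine breakdown 6 were tested, 3 higher and 1 lower. The choline transporter Slc44a1 was higher at 1.80 ± 1.12 (limma adjusted p = 0.001749), as were its relative Slc44a2 (0.35) and butyrylcholinesterase, Bche (1.43), and the choline kinase Chkb was lower (-0.47). With the lines compared without pairing by day, Chrm2 was at 1.55 and Slc44a1 at 3.41, so their sizes are uncertain. That fit also took values joined over consecutive days in place of same-day ratios, so the shift cannot be put down to pairing. Chrna10, Agrn, Lypd6, Tmem35, Ric3, Slc44a2, Bche and Chkb are named after their values were seen, to complete these counts.

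Transcription factors of cholinergic neurons went both ways. Of 12 listed 7 were tested, 2 called higher and 3 lower, with a median of -0.55. Nkx2-1, which specifies cholinergic neurons of the basal forebrain among other ventral types, had a mean log2 ratio of 5.25 ± 2.37 with every day tested above 0 (limma adjusted p = 0.0003197) and was at 4.65 without day 0. Olig2, a factor of motor neuron and oligodendrocyte progenitors, was higher at 3.02 ± 1.44 (limma adjusted p = 0.0004262). Phox2a, which specifies autonomic and some cranial motor neurons, had a mean log2 ratio of -2.46 ± 1.83 and lay below control on 8 of 9 days (limma adjusted p = 0.00425; SD, n = 9 days for each). Gbx2 was also lower, at -1.39, and is named after its value was seen. The motor neuron factor Isl1, at -0.55 ± 1.52, and Isl2, at 0.74 ± 2.58, did not pass the test (limma adjusted p = 0.3309 and 0.444). Below the filter and not tested, Mnx1 was at 1.90 ± 0.96 and higher on 9 of 9 days. The others below it were Lhx8 (0.01 ± 0.83), Lhx3 (-1.19 ± 2.04), Lhx4 (-1.55 ± 2.59) and Gbx1 (-1.87 ± 1.60). These genes are also named after their values were seen.

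Marker genes of several cell types also differed between the lines, some lower and some higher, and their part in the results was not tested. Of 8 neuron markers tested 5 were lower and 0 higher, with a median of -1.46. Called lower were Stmn2 (-2.01), Elavl4 (-1.99), Dcx (-1.99), Tubb3 (-1.88) and Syt1 (-0.95). Snap25 (-1.04), Elavl3 (-0.30) and Syp (-0.15) were not called. Chrna3 and Chrnb4 lay further from control than any of the 8, while Slc5a7, Chrna4, Chrna5, Chrna7 and Chrnb2 lay within their range. Marker levels were summed over the genes with at least 8 libraries of whole or open reads. The summed level of Dcx and Syp, the neuron markers that met this, ran from 2140 to 10270 normalized reads in the control and from 291 to 3407 in the knockdown. Of 6 autonomic or peripheral neuron markers 4 were lower and 1 higher (median -1.32), with a sum over 4 of them of 309 to 742 in the control and 77.3 to 571 in the knockdown. All 5 skeletal muscle markers tested were lower (median -4.81). The sum of Myod1, which was below the filter, Myog, Des, Myh3 and Chrna1 was 107 to 36844 in the control and 17.3 to 1163 in the knockdown. All 4 embryonic stem cell markers were lower (median -2.81) and all 4 astrocyte markers higher (median 1.34). Of 8 dopaminergic markers tested 3 were higher and 0 lower (median 0.29), and of 7 fibroblast markers 2 were lower (median -0.43). In the list of motor or other cholinergic neurons, which holds Chat, Slc18a3 and Slc5a7, 3 of 7 were tested and 1, Slc5a7, was lower. Of 6 oligodendrocyte markers 1 was higher (median 2.02). Dcx and Syp had reads in every library, and Th, the enzyme of dopamine synthesis, had 3 to 83.5 reads in the control and 3 to 63.8 in the knockdown.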

How the data were processed

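Poly(A) RNA libraries of 20 SNM samples, grouped by the labels, were sequenced by the authors and aligned to mm9 with CASAVA 1.8.2 and ELAND. The deposited values were log2 normalized read counts (DESeq normalization), with the mean of the 2 libraries of a table subtracted by the authors and values below 1 normalized read set to the floor. The 28 tables covered each day's lines and each line's consecutive days. Ratios were read from the same-day tables and values within a line were joined over consecutive tables. Around each joining loop 72.2% to 74.2% of 19041 genes closed, except 0.152% for control days 3 to 4, whose table is at odds with the others. Reads of 73 of 106 genes searched were recovered (51.9% of values whole within 0.0001 reads plus rounding, the rest mostly in steps of 1/49 of a read). Tests used limma 3.58.1 with Benjamini-Hochberg adjustment over 13608 genes whose typical log2 normalized count reached 4, threshold 0.05, after a test on simulated data. Libraries of a day were paired as in the study. Same-day deviations correlated at -0.03 on day 0 and 0.13 to 0.41 on the other days. Libraries of different days were not compared in this way, so these values do not show that pairing was needed. All 10 members were named, with up to 8 called genes of the other cholinergic lists by size. Some genes that this rule or the likeness rule selects are not reported here. Members and lists were chosen with earlier results of these data known. The alternatives concerned filters, day 6, pairing, scaling, pseudocounts and single days.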

Additional observations from a re-analysis of the deposited data

Results flagged for a closer look

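In 30 groups of values (each member's level in each line and its daily ratio), 3 single values stood apart by Dixon's test, and chance flags about 1 in 20 groups. Slc18a3 was at 84.0 normalized reads in the control on day 12, with the next highest library at 49.7. Ache had a log2 ratio of 1.62 on day 1, with the next highest day at 0.44. Chrnb4 was at 49.0 normalized reads in the HPRT knockdown on day 4, with the next highest library at 25.2, the day on which Chrna3 also had its highest knockdown level. The slope of the Chrnb2 ratio, -0.19 per day on the log2 scale (limma adjusted p = 0.02251), differed between the lines by a test of the difference itself.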

How the results depend on the processing

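The 7 called members kept their direction and stayed past the threshold in all 113 alternative values, with a highest adjusted p (limma, or the exact sign-flip permutation test) of 0.02094. Without pairing by day (no block), on values joined over consecutive days, 5829 genes differed, 3141 higher and 2688 lower. The paired fit on same-day ratios gave 7141, and no member's call changed. The effects of pairing and of joining cannot be told apart in this comparison. Leaving out single days gave 6254 to 7265 such genes, 4621 to 6267 genes with a control trend (5933 with all days), 171 to 2959 with a knockdown trend (1786) and 605 to 1657 with a ratio trend (1911). The knockdown count was lowest without day 14 (171), 464 without day 12, 725 without day 2, 849 without day 10 and highest without day 0 (2959). The ratio count was lowest without day 12 (605). With the slope on log2(day + 1), 3929 genes had a control trend and 127 a knockdown trend, and with day 6 kept 1066 had a ratio trend. The cause was not tested.

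Values that changed sign were not called on either side. The Ache mean ratio was -0.14 with day 6 kept and -0.16 to 0.12 without single days. The Slc5a7 control slope was 0.00851 with steps through the other line, 0.0145 with the day 3 to 4 step through the knockdown and 0.0226 from recovered reads, and -0.0153 to 0.0127 without single days. The Chrna7 control slope was 0.0710 on log2(day + 1) and -0.0342 to 0.0344 without single days. The Chrna3 knockdown slope was -0.00877 on log2(day + 1), -0.00204 through the other line and -0.00568 from recovered reads, and -0.0865 to 0.0719 without single days. New calls came without day 0 for the Ache knockdown slope (limma adjusted p = 0.03307), day 3 for Chrna4 (0.02327) and day 1 for Chrna7 (0.03825). For the ratio slopes they came without day 1 for Chrna7 (0.03917), day 10 for Slc18a3 (0.04833) and day 14 for Chrna4 (0.01448), and also for Chrna4 on log2(day + 1) (0.03052) and with the filter at 8 (0.04685) and for Chrnb4 from recovered reads (0.04894).

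The filter at a log2 count of 8 left Chrna4 as the single member tested. The alternatives for the control day 3 to 4 step and for recovered reads were added after seeing the data. The limits are 1 line per group, 1 library per day, unknown lanes and few reads for Chat, Chrna3, Chrna5 and Chrnb4 in the knockdown.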
